A study of Mus musculus with 28 samples.

Results

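The mitochondrial fatty acid oxidation genes described here are 10 genes listed by symbol, *Cpt1a*, *Cpt2*, *Acadvl*, *Acadl*, *Acadm*, *Acads*, *Hadha*, *Hadhb*, *Etfa* and *Etfb*, among 15384 genes with an RNA-seq value. They were chosen with their response to *Ssrp1* knock-down (KD) already known, so the KD values of these 10 genes are given as a description, without a test. The cells were mouse embryonic stem cells (mESCs) of the E14 line, grown in serum with leukaemia inhibitory factor. Both groups were transfected with lentiviral shRNA vectors, which carried a scramble sequence in the 4 control libraries and a combination of *Ssrp1* shRNAs in the 4 KD libraries. Puromycin at 2 µg/ml was added 48 h later, and RNA was collected after 24 h of selection, with ERCC spike-ins (synthetic RNAs added in a known amount). *Ssrp1* encodes a subunit of FACT, a histone chaperone made of SSRP1 and SUPT16. Further values came from 2 libraries of chromatin-associated RNA of E14 cells, for which the labels name no treatment, and from ChIP-seq peaks of SSRP1 and SUPT16. The cells are a single line, and the KD libraries describe a pool of cells that survived selection, not a clone.

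Mitochondrial fatty acid oxidation shortens an acyl-CoA chain stepwise and passes the released electrons to the respiratory chain. Long chains enter by the carnitine shuttle, are dehydrogenated by acyl-CoA dehydrogenases with different chain-length preferences, and are then cleaved by the trifunctional protein. Electron transfer flavoprotein takes electrons from the dehydrogenases. The pathway is best known in liver, heart, muscle and brown fat, and many of its genes are targets of PPAR and ERR nuclear receptors.

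The targeted gene was low in every library labelled KD. *Ssrp1* had library-size values of 223 to 261 in the control and 24.1 to 28.9 in the KD libraries (log2 difference -3.15, SE 0.07, limma adjusted p = 1.18e-22). *Supt16*, the other subunit's gene, had 296 to 346 in the control and 481 to 529 in the KD libraries (log2 difference 0.66, SE 0.06, limma adjusted p = 5.24e-11), a rise under the threshold of a log2 difference of 1. This rise depended on the scaling, with 1.69 under spike-in scaling and 0.03 after quantile normalisation, both described below. It is an RNA value, and the paper reports by mass spectrometry that SUPT16 was depleted together with SSRP1. Reads per library, recovered from the deposited values, were 4602278 to 6680919 in the control and 9433193 to 19856032 in the KD group, so KD values rested on more reads. All 10 ES cell markers checked had a value, and their sum was 1835 to 1940 in the control and 4994 to 5452 in the KD libraries. Fibroblast markers (5 of 7 measured, *Lum* and *Dcn* without a value) went from 50.0 to 63.7 in the control to 13.2 to 15.0 in the KD libraries. Of 6 markers of liver, muscle and brown fat, *Ckm* and *Myh6* had a value, and their sum was 28.0 to 49.5 in the control and 11 to 13.6 in the KD libraries. For neural markers (5 of 8 measured) the sums were 83.7 to 107 and 145 to 156. The part of these marker changes in the results was not tested, and in bulk RNA fewer cells of a type and less RNA per cell cannot be told apart.

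The sequences before the starts of the genes with the largest differences are shown first, because the KD values are later read beside them. *Acadm* and *Acads* had higher values in the KD libraries, and *Acadl* had lower ones. *Etfb*, also higher, is not shown because its window lies within *Cldnd2*. *Hadha* and *Hadhb* lie head to head and share the 272 bases between their starts. All come from RefSeq on GRCm38.p6 (mm10) and are written 5′ to 3′. The first 3 are the 250 bases before the start on the gene's own minus strand, at chr3:153944644-153944893 (*Acadm*), chr5:115119347-115119596 (*Acads*) and chr1:66863310-66863559 (*Acadl*). The last is chr5:30154981-30155252 on the plus strand, the strand of *Hadhb*. Capitals mark matches on either strand to the GC box with the letters GGGCGG, the promoter element CCAAT, the nuclear receptor half-site AGGTCA, its extended form written AAGGTCA, the core of the NRF1 motif TGCGCA and the TATA box core TATAAA.
Acadm upstream: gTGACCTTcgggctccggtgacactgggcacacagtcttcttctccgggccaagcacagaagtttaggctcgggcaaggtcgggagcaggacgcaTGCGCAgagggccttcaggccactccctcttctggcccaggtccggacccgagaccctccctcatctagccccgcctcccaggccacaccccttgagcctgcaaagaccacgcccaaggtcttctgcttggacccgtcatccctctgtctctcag
Acads upstream: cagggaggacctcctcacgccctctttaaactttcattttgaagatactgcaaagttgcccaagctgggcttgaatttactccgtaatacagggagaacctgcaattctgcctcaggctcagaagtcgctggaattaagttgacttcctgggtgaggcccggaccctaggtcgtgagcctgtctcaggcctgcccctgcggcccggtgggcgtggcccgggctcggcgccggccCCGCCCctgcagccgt
Acadl upstream: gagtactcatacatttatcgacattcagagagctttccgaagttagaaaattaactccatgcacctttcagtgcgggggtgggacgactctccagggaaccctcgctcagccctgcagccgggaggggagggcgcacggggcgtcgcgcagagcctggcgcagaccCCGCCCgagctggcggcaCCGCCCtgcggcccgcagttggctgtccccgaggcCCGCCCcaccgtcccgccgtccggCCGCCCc
Hadha-Hadhb between starts: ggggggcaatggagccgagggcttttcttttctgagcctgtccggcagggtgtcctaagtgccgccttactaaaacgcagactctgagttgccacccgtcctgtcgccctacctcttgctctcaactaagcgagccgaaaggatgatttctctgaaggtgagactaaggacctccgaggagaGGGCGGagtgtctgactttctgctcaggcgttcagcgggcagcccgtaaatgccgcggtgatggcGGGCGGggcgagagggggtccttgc

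All 10 genes had an upstream window in the RefSeq table. A GC box was found in 6 of them (*Acadl*, *Acads*, *Hadha*, *Hadhb*, *Cpt1a* and *Cpt2*), against 32.7% of 32851 promoter windows of the same length. The *Hadha* and *Hadhb* windows overlap, and the 1 box of *Hadha* is also 1 of the 2 boxes of *Hadhb*. These 2 genes are therefore not separate cases in the count of 6. *Acadl* held 4 of these boxes in its 250 bases. CCAAT was found in 3 (*Cpt1a*, *Etfa*, *Etfb*), against 33.8% of promoter windows. AGGTCA was found in 3 (*Acadm*, *Acadvl*, *Cpt1a*), against 14%, and the *Acadm* match is part of the extended form, which 4.08% of windows hold. TGCGCA was found in *Acadm*, against 6.43%, and TATAAA in none of the 10, against 12.4%. GC content was 49.6% to 68.0% (median 58.8%), with a median of 52.4% over all windows. *Cpt1a* and *Etfb* windows overlap transcribed sequence, of another *Cpt1a* transcript and of *Cldnd2*. These matches are letters in a window and not measured sites.

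In control mESCs the 10 genes spanned a wide range of expression. On the scale of the library-size value divided by exon length, *Etfb* was highest (52.1 ± 1.98 per kb, SD, n = 4), at the percentile 92.3 of all genes. It was followed by *Acadm* (42.2 ± 3.31), *Hadha* (38.4 ± 2.09), *Acadvl* (35.6 ± 3.71), *Hadhb* (30.0 ± 3.00) and *Etfa* (28.0 ± 2.81). *Acads* (20.6 ± 1.53), *Cpt1a* (9.05 ± 0.572), *Cpt2* (7.21 ± 0.663) and *Acadl* (4.47 ± 0.437, percentile 31.4) were lower. From *Acadm* down to *Etfa*, each gene's control range overlapped that of its neighbour in the order. Within single libraries *Hadha* still lay above *Acadvl* each time (40.29 and 39.68, 35.72 and 30.94, 37.65 and 34.75, 39.73 and 37.08). The other overlapping neighbours changed order between libraries. *Etfb* above *Acadm*, and each step from *Etfa* down to *Acadl*, had ranges that did not overlap.

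In the KD libraries the order per kb changed. *Etfb* (127 ± 6.36 per kb) and *Acadm* (111 ± 4.19) stayed at the top, and *Acads* (46.0 ± 3.76) came to lie between *Hadha* (54.0 ± 1.16) and *Acadvl* (34.9 ± 0.428). *Hadhb* (34.8 ± 2.82) and *Etfa* (31.3 ± 2.26) followed, with ranges that overlapped each other and that of *Acadvl*. *Cpt1a* (15.1 ± 0.700), *Cpt2* (7.80 ± 0.444) and *Acadl* (1.84 ± 0.534) kept the last places.

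The values below are library-size values, scaled so that 1 read was worth 0.0580 to 0.179. A log2 difference is KD minus control on log2(value + 0.5), with its SE from limma, and a gene is called past an absolute difference of 1 at an adjusted p below 0.01. Of the 10 genes, 3 were called higher (*Acadm*, *Etfb*, *Acads*), a direction in which 8.07% of all genes were called. *Acadl* alone was called lower, against 20.6% of all genes. Lower calls were concentrated among genes with low values. There were 3163 over all 15384 genes, and 961 over the 10765 genes with a mean value of at least 10. That filter removed *Acadl*. Every KD value lay above every control value for 5 genes (*Acadm*, *Acads*, *Etfb*, *Cpt1a*, *Hadha*), as for 35.8% of all genes, and below for *Acadl*, as for 37.5% of all genes. Since the genes were chosen on this contrast, nothing is read from these counts. Just inside the threshold lay *Acads* (1.15) and *Acadl* (-1.20), and just outside it *Cpt1a* (0.73). The median log2 difference of the 10 genes was 0.35, beside -0.03 over all 15384 genes, and 9 of the 10 lay above the latter. With a mean value of at least 10 required, the medians were 0.49 for the 9 members left and 0.22 over all 10765 genes. Of these 9, 5 lay above 0.22. After quantile normalisation the medians were 0.16 and 0.05, and 5 of the 10 genes lay above 0.05.

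**Figure D1:**
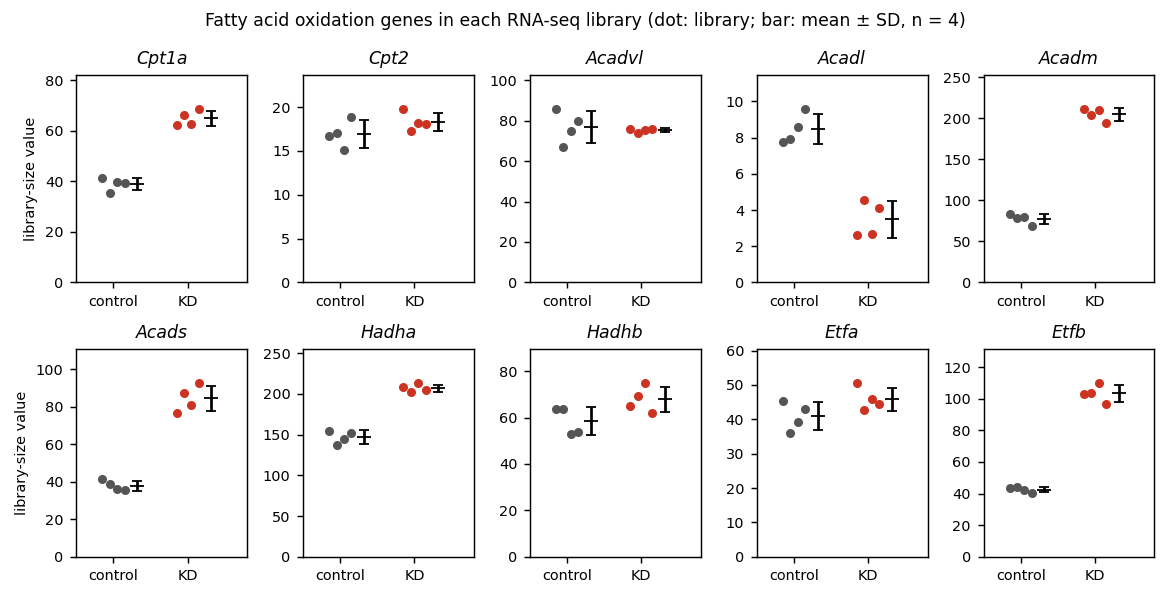
Library-size value (linear axis from 0) of each of the 10 genes in 4 control (grey) and 4 KD (red) libraries, 1 dot per library, with the mean ± SD (n = 4) at the right of each group. The groups are apart for *Cpt1a*, *Acadl*, *Acadm*, *Acads*, *Hadha* and *Etfb*, with *Acadl* the one in which the KD dots are lower.

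The 2 carnitine shuttle genes differed in their response. *Cpt1a* (chromosome 19, 3322326 to 3385735, plus strand) encodes the outer-membrane carnitine palmitoyltransferase at which entry into the mitochondrion is controlled. Its values were 41.2, 35.5, 39.6 and 39.4 in the control libraries and 62.2, 66.3, 62.9 and 68.6 in the KD libraries, here and below in the order of replicate number. The groups did not overlap, and the KD mean was 1.67 times the control mean (log2 difference 0.73, SE 0.07). *Cpt2* (chromosome 4, 107903982 to 107923589, minus strand) encodes the inner-membrane enzyme that reforms the acyl-CoA. It had 16.7, 17, 15.1 and 18.9 in the control and 19.8, 17.3, 18.2 and 18 in the KD libraries. These ranges overlapped, and the log2 difference of 0.11 was close to its SE of 0.11. The ratio of *Cpt1a* to *Cpt2* per kb was 1.27 ± 0.151 in the control and 1.95 ± 0.178 in the KD libraries (SD, n = 4). The lncRNA *Gm36532* overlaps *Cpt1a*, so that reads of the pair may not be told apart.

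The 4 acyl-CoA dehydrogenase genes took different courses, from more than double to less than the control level. *Acadvl* (chromosome 11, 70010183 to 70015428, minus strand) encodes the very long-chain enzyme. Its values were 85.6, 66.8, 75.0 and 80.0 in the control and 75.8, 73.9, 75.5 and 76.0 in the KD libraries. The KD values lay inside the control range, with a log2 difference of -0.02 (SE 0.07). *Acadl* (chromosome 1, 66830839 to 66863309, minus strand) encodes the long-chain enzyme and was the member with the lowest control level. It had 7.76, 7.92, 8.61 and 9.57 in the control and 2.60, 4.57, 2.66 and 4.12 in the KD libraries. The control mean was 2.43 times the KD mean (log2 difference -1.20, SE 0.19, and -0.95 with a pseudocount of 2), and the KD values fell in a higher and a lower pair. These values rested on 46 to 70 reads in the control and 21 to 78 reads in the KD libraries, and *Acadl* contains the pseudogene *Gm15793*.

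*Acadm* (chromosome 3, 153922353 to 153944643, minus strand) encodes the medium-chain enzyme and had the largest difference among the 10 genes. Its values were 83.0, 79.0, 80.4 and 69.1 in the control and 211, 204, 210 and 194 in the KD libraries. The groups were far apart, and the KD mean was 2.63 times the control mean (log2 difference 1.39, SE 0.06). *Acads* (chromosome 5, 115110299 to 115119346, minus strand) encodes the short-chain enzyme. It had 41.5, 38.6, 35.9 and 35.4 in the control and 76.9, 87.5, 80.9 and 92.4 in the KD libraries. Again no KD value overlapped the control, at 2.23 times the control mean (log2 difference 1.15, SE 0.07). Beside *Acadvl*, the short- and medium-chain genes gained share. *Acadm* over *Acadvl* per kb was 1.20 ± 0.160 in the control and 3.18 ± 0.128 in the KD libraries, and *Acads* over *Acadvl* was 0.583 ± 0.0674 and 1.32 ± 0.111. *Acadm* over *Acadl* went from 9.54 ± 1.54 to 64.7 ± 20.4, with a wide spread between KD libraries.

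*Hadha* and *Hadhb* encode the α and β subunits of the trifunctional protein, which carries the hydratase, dehydrogenase and thiolase steps for long chains. *Hadha* (chromosome 5, 30119423 to 30154980, minus strand) had 154.5, 137, 144 and 152 in the control and 208, 202.5, 213 and 205 in the KD libraries. The groups did not overlap, with a KD mean 1.41 times the control mean (log2 difference 0.49, SE 0.06). *Hadhb* (chromosome 5, 30155253 to 30184593, plus strand) had 63.6, 63.5, 53.1 and 53.8 in the control and 65.1, 69.4, 74.7 and 62.0 in the KD libraries. KD replicate 4 lay within the control range, and the log2 difference was 0.21 (SE 0.08). The pair that shares the printed 272 bases therefore did not keep a fixed ratio in every library. *Hadha* over *Hadhb* per kb was 1.24, 1.10, 1.38 and 1.44 in the control and 1.62, 1.48, 1.45 and 1.68 in the KD libraries. The lowest KD ratio lay just above the highest control ratio.

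*Etfa* and *Etfb* encode the subunits of electron transfer flavoprotein, which pair in equal number in the protein. *Etfa* (chromosome 9, 55454436 to 55512243, minus strand) had 45.5, 36.1, 39.3 and 43.1 in the control and 50.4, 42.6, 45.9 and 44.6 in the KD libraries. The ranges overlapped, and the log2 difference was 0.16 (SE 0.08). *Etfb* (chromosome 7, 43444072 to 43457800, plus strand) had 43.3, 44.1, 42.2 and 40.4 in the control and 103, 104, 110 and 97.0 in the KD libraries. The KD mean was 2.44 times the control mean (log2 difference 1.27, SE 0.06), with no overlap. *Etfb* over *Etfa* per kb was 1.71, 2.19, 1.93 and 1.68 in the control and 3.68, 4.37, 4.30 and 3.91 in the KD libraries. Every KD ratio was above every control ratio. *Etfb* overlaps the neighbouring gene *Cldnd2* by 59 bp, a stretch whose reads cannot be assigned with certainty.

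How far these differences hold depended on the scaling. Under the scaling to spike-ins the median log2 difference of all genes moved to 0.95, and that of the 10 genes was 1.37, which is 0.42 above it. There 8 of the 10 genes were called higher, against 48.1% of all genes, and 8 had every KD value above every control value (all except *Acadvl* and *Acadl*), against 48.8% of all genes. Relative to the median of all genes, *Acadm* stood at 1.46, *Etfb* at 1.34, *Acads* at 1.21, *Cpt1a* at 0.79, *Hadha* at 0.56, *Acadvl* at 0.04 and *Acadl* at -1.21 on the log2 scale. These relative values are close to those under library-size scaling (1.43 for *Acadm* and -1.17 for *Acadl*). Both scalings multiply all genes of a library by 1 factor, which subtracting the median largely removes. Their closeness was therefore fixed in advance and is no check of the differences. *Acadvl* changed sign on the unadjusted scale, from -0.02 to 0.995 (SE 0.29). *Acadl* stood at -0.26 (SE 0.30), and at 0.04 when KD replicate 1, whose spike-in scaled values were the lowest KD values for all 10 genes, was left out.

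Spike-in scaled values spread more. For *Acadm* they were 55.8, 47.3, 53.9 and 61.8 in the control and 194, 378, 339 and 292 in the KD libraries. KD replicate 1 lay well below the other KD libraries, and still above every control library. Summed over the 10 genes the spike-in scaled value was 387 ± 72.5 in the control and 1290 ± 348 in the KD libraries (SD, n = 4), and the library-size value was 546 ± 25.5 and 876 ± 13. Without KD replicate 1 the spike-in median difference of the 10 genes was 1.59, beside 1.16 over all genes.

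Quantile normalisation, which forces all libraries to the same distribution, gave smaller differences for 8 of the 10 genes and larger ones for *Acadvl* (-0.34) and *Cpt2* (0.29). *Etfb* (0.99), *Acadm* (0.99) and *Acads* (0.90) then missed the threshold of 1, *Hadhb* (-0.08) and *Etfa* (-0.03) changed sign, and *Acadl* stood at -0.22. A correction for exon length left *Acadm* (1.24) and *Acadl* (-1.34) past the threshold, moved *Acads* (0.99) and *Etfb* (0.78) under it, and turned *Etfa* to -0.09. *Etfb*, with 815 bp of exon, is the shortest of the 10 genes. Of all calls, 28.2% were higher in KD under library-size scaling, 87.2% under spike-in scaling, 47.8% under quantile normalisation and 54.3% over genes with a mean value of at least 10.

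**Figure D2:**
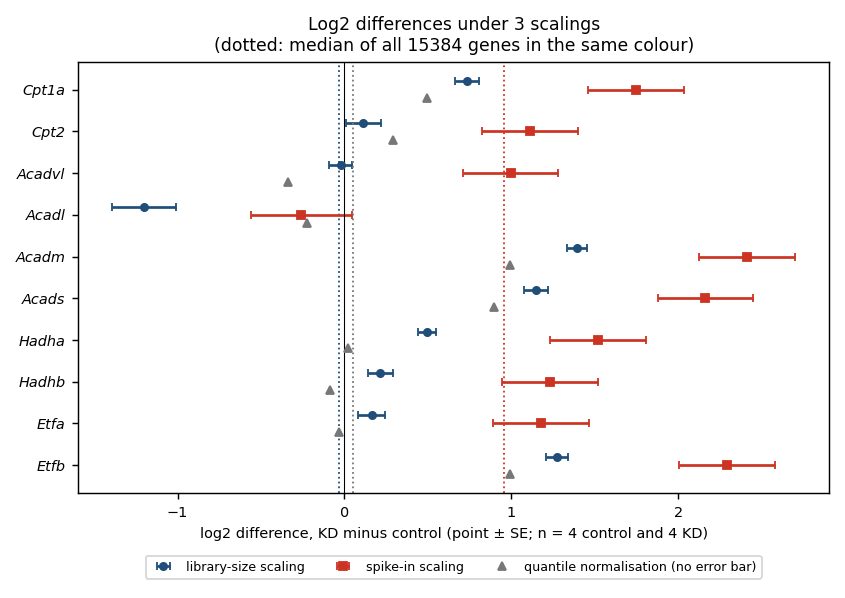
Log2 difference, KD minus control, of each of the 10 genes under library-size scaling (blue circles, ± SE), spike-in scaling (red squares, ± SE) and quantile normalisation (grey triangles, without error bars), from 4 control and 4 KD libraries. Dotted lines give the median of all 15384 genes in the same colour, and spike-in values lie to the right together with their median of 0.95.

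Other genes of mitochondrial fatty acid oxidation also moved in both directions. This list and the later ones were likewise chosen with earlier results of these data known. The genes named from them are their largest calls, so their adjusted p-values are given as a description. Of 25 with a value (*Cpt1b* had none), 3 rose past the thresholds and 1 fell, beside 8.07% and 20.6% of all genes, with a median log2 difference of 0.42. Under spike-in scaling 17 were called, all higher, beside 48.1% of all genes. *Acaa2*, the mitochondrial 3-ketoacyl-CoA thiolase, rose from 49.5 ± 5.63 to 169 ± 7.50 (SD, n = 4; log2 difference 1.77, SE 0.07, limma adjusted p = 7.58e-18). *Hsd17b10*, a short-chain hydroxyacyl-CoA dehydrogenase, rose from 20.4 ± 4.86 to 69.7 ± 3.44 (1.78, SE 0.11, limma adjusted p = 5e-14), and *Eci1*, an enoyl-CoA isomerase, from 13.4 ± 1.42 to 30.0 ± 0.496 (1.14, SE 0.10, limma adjusted p = 5.28e-11). The gene that fell was *Mlycd*, malonyl-CoA decarboxylase, from 8.11 ± 1.96 to 3.65 ± 0.305 (-1.02, SE 0.19, limma adjusted p = 2.01e-05). Its call was lost without control replicate 3 (-0.96), control replicate 4 (-0.93) or KD replicate 2 (-0.97), with a pseudocount of 2 (-0.82), after quantile normalisation (-0.0434) and under spike-in scaling (-0.0873, and 0.0940 without KD replicate 1). The length correction took the *Eci1* call away (0.79). With a mean value of at least 10 required, *Mlycd* was removed and 24 of these genes remained, with 3 called higher and 0 lower. Over all genes that filter left 10765, with 1142 called higher and 961 lower.

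Peroxisomes shorten very long and branched chains with a separate set of enzymes. Of 14 such genes with a value (*Acox2* and *Abcd2* had none), 4 were called, all of them higher (8.07% of all genes), and the median log2 difference was 0.28. Under spike-in scaling 11 were called, all higher (48.1% of all genes). The largest under library-size scaling were *Ech1* (1.37, SE 0.08, limma adjusted p = 9.73e-15), *Pecr* (1.32, SE 0.11, limma adjusted p = 9.22e-12) and *Acaa1a*, the peroxisomal thiolase (1.09, SE 0.08, limma adjusted p = 5.2e-13). The *Acaa1a* call was lost after quantile normalisation (0.88) and after the length correction (0.92). *Ehhadh*, the peroxisomal bifunctional enzyme, stood at -0.03. *Acox3* stood at -0.99 (SE 0.10), just short of a lower call. With a pseudocount of 0.1, with edgeR, without control replicate 4 or without KD replicate 2, 1 gene was called lower beside 4 higher.

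Fatty acid synthesis builds chains in the cytosol and, by a separate small pathway (*Mcat*, *Oxsm* and *Mecr* in this list), in mitochondria. Of 17 genes, 3 were called, all higher (8.07% of all genes), with a median log2 difference of 0.35. Under spike-in scaling 13 were called, all higher (48.1% of all genes). The 3 called under library-size scaling were *Scd2*, a stearoyl-CoA desaturase (1.18, SE 0.06, limma adjusted p = 1.09e-15), *Acly*, the ATP citrate lyase (1.04, SE 0.06, limma adjusted p = 3.19e-15), and *Slc25a1*, the citrate carrier (1.01, SE 0.07, limma adjusted p = 4.65e-13). The call of *Slc25a1* was lost without control replicate 1 (0.997) or control replicate 4 (0.99), with a pseudocount of 2 (0.98), after quantile normalisation (0.81) and after the length correction (0.82). Quantile normalisation left none of the 17 past the limma thresholds, beside 3174 of all 15384 genes. Even so, 13 of the 17 had an unadjusted p below 0.05 there. The edgeR and DESeq2 tests called the same number as the library-size fit, 3, beside 4711 and 4762 of all genes.

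Regulators of the pathway held the largest falls of the 5 lists. Of 19 with a value (*Ppargc1a* had none), 3 were called, all lower (20.6% of all genes), beside a median log2 difference of 0.01. Just short of the threshold lay *Gabpa* (0.98), *Nrip1* (-0.97) and *Prkaa2* (-0.97). After the length correction 1 was called higher and 2 lower, and with DESeq2 or without control replicate 4, 1 higher and 4 lower. Under spike-in scaling 10 were called, 9 of them higher (48.1% of all genes) and *Ppara* lower, and without KD replicate 1 there were 11 higher and 1 lower. *Ppara*, the nuclear receptor of fatty acid catabolism, fell from 14.2 ± 3.86 to 1.41 ± 0.161 (SD, n = 4; log2 difference -2.91, SE 0.20, limma adjusted p = 3.44e-13). *Ppargc1b*, a coactivator of ERR receptors, fell from 8.88 ± 2.33 to 2.36 ± 0.475 (-1.69, SE 0.21, limma adjusted p = 3.27e-08). *Lpin1*, a phosphatidate phosphatase and coactivator, went from 113 ± 13.5 to 55.2 ± 2.60 (-1.02, SE 0.07, limma adjusted p = 7.23e-13). The *Lpin1* call was lost without control replicate 1 (-0.95) or KD replicate 1 (-0.99), after the length correction (-0.72) and under spike-in scaling (-0.00217, and 0.23 without KD replicate 1). *Ppargc1b* missed the threshold under spike-in scaling (-0.78) and quantile normalisation (-0.68). With a mean value of at least 10 required, *Ppara* and *Ppargc1b* were among the genes removed. Of the 16 regulators left, 1 was called, *Lpin1*, lower, beside 1142 higher and 961 lower of 10765 genes.

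**Figure D3:**
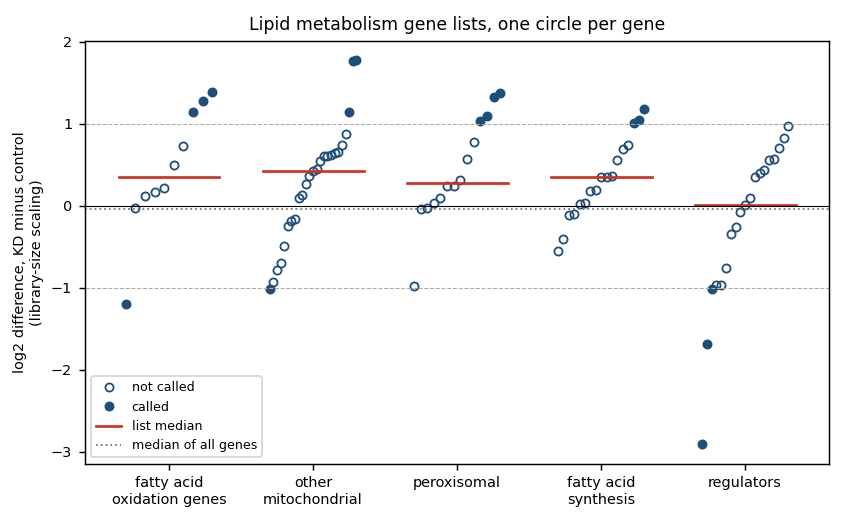
Log2 difference, KD minus control, under library-size scaling for every gene with a value in 5 lists (10, 25, 14, 17 and 19 genes), 1 circle per gene, filled where called. Red bars give the list medians (0.35, 0.42, 0.28, 0.35 and 0.01), dashed lines the threshold of 1, and the dotted line the median of all genes at -0.03.

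The genes whose profile over the 8 libraries lay nearest the median profile of the 10 genes were *Psmd14*, *Snx4*, *Psmc1*, *Amd1* and *Ccnt2*, at Euclidean distances of 0.0436 to 0.0745 between mean-centred log2 values. *Psmd14* went from a mean of 153 in the control to 205 in the KD libraries. The median profile is a mild one (log2 difference 0.43 for *Psmd14*) that hides the spread from *Acadm* to *Acadl*.

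Chromatin-associated RNA of E14 cells gave a second view of the 10 genes, without a KD group. The 2 libraries held 3441643 and 3393923 counts, of which 2 genes took 33.8%, and the 10 genes together had 88 and 126 counts. *Hadha* was highest with 31 and 60 counts, or 2.35 (exact 95% Poisson interval 1.60 to 3.33) and 4.61 (3.52 to 5.93) CPM (counts scaled to the library total) per kb. These intervals did not overlap, so the 2 libraries differed by more than counting error for this gene. *Etfb* had 5 and 7 counts, *Acadvl* 11 and 16, *Acadm* 10 and 12, *Etfa* 10 and 7, and *Acads* 8 and 5. *Hadhb* had 5 and 4 counts, *Cpt1a* 4 and 12, *Acadl* 3 and 3, and *Cpt2* 1 and 0, where the interval of the 0 count reached 0.462 CPM per kb. For all genes but *Hadha* the intervals of the 2 libraries overlapped.

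The median over the 10 genes was 1.37 CPM per kb, beside 0.70 over the 15384 genes with an RNA-seq value. *Hadha* over both libraries (3.47, interval 2.80 to 4.26) lay above *Hadhb* (0.68, interval 0.31 to 1.28), a difference beyond counting error over both libraries and in library 2 (*Hadhb* 0.60, interval 0.16 to 1.55). In library 1 alone the intervals overlapped (1.60 to 3.33 for *Hadha* and 0.24 to 1.74 for *Hadhb*). *Etfb* (2.15, interval 1.11 to 3.76) and *Etfa* (1.70, interval 0.99 to 2.72) were not distinguishable at this depth. *Acadm* (1.74) and *Acadvl* (1.83) also had overlapping intervals. These intervals cover counting error only.

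**Figure D4:**
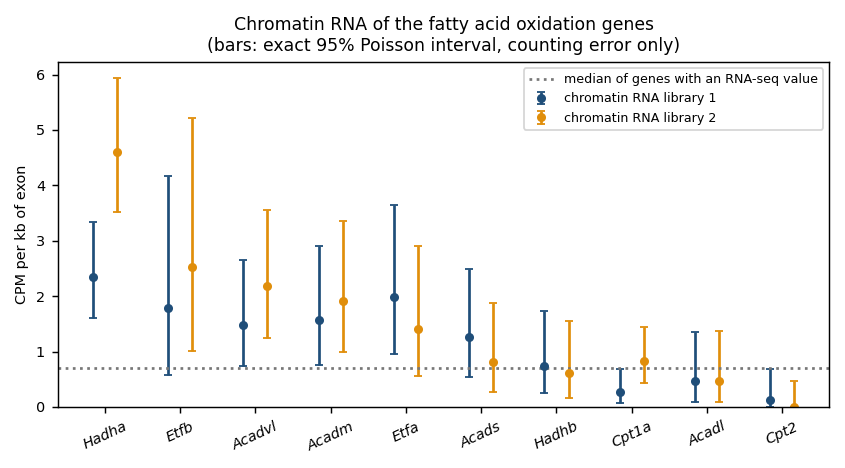
Chromatin-associated RNA of the 10 genes in CPM per kb of exon (linear axis), in library 1 (blue) and library 2 (orange), with exact 95% Poisson intervals. *Hadha* lies highest and *Cpt2* lowest, and the dotted line is the median of 0.70 over genes with an RNA-seq value.

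FACT peaks were close to 1 of the 10 genes. A SSRP1 peak was assigned to *Etfa* alone, against 36.0% of the 15384 genes, and *Etfa* alone had one within 1000 bp of its start, against 27.0% of 11621 genes with an annotated start. A SUPT16 peak was likewise assigned to *Etfa* alone, against 18.6% of genes. The SSRP1 peak, chr9:55511709-55512198 (490 bp), lay 45 bp inside the gene from its start, and the SUPT16 peak was chr9:55511681-55512100 (420 bp). Both covered a shared 392 bp, of which 70 bases belonged to exon 1 (chr9:55512031-55512243) and the rest to intron 1. With peaks of at least 500 bp, no member had a SSRP1 peak, against 17.6% of genes. Peaks were called once over the replicates, so their spread between replicates is not known.

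The first 300 bases of *Etfa* intron 1 under both peaks, chr9:55511731-55512030 on the minus strand, are shown as the stretch under the peaks assigned to one of the 10 genes. Capitals mark matches to AGGTCA, 1 of them in the extended form AAGGTCA.
Etfa intron 1: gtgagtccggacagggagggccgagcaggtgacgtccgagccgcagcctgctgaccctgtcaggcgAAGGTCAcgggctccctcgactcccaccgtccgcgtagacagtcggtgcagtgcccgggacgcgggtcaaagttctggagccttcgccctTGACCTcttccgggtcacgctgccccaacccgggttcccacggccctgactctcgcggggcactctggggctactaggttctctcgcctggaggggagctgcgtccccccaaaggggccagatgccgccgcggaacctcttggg

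Its GC content was 69.0%, with 27 CpG dinucleotides. It held 2 matches to AGGTCA on either strand. At least 1 match was present in 17.2% of 10114 windows of 300 bases centred on SSRP1 peaks, and at least 1 match to the extended form in 6.09% of them, while windows with 2 matches were not counted. *Etfa* itself was among the genes with overlapping control and KD values. The 3 genes called higher and *Acadl* had no assigned peak. Their nearest SSRP1 peaks lay 27.9 kb (*Acads*), 31.6 kb (*Acadm*), 45.7 kb (*Acadl*) and 110 kb (*Etfb*) from the start.

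Among the other members the nearest SSRP1 peak was at 5.47 kb for *Acadvl*, 43.5 kb for *Cpt2*, 65.7 kb for *Cpt1a*, 207 kb for *Hadha* and 208 kb for *Hadhb*. For *Acadvl* the peak was upstream and assigned to *Dlg4*. A SSRP1 peak was assigned to 9 of 25 other mitochondrial oxidation genes, 2 of 14 peroxisomal genes, 9 of 17 synthesis genes and 10 of 19 regulators, beside 36.0% of all genes. Of the 14 genes called in these 4 lists, 7 had an assigned peak (*Acaa2*, *Eci1*, *Pecr*, *Acly*, *Scd2*, *Slc25a1* and *Ppara*) and 7 had none (*Hsd17b10*, *Mlycd*, *Ech1*, *Acaa1a*, *Scp2*, *Ppargc1b* and *Lpin1*). The authors assigned each peak to the nearest gene, so an assigned peak need not lie at that gene's start.

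**Figure D5:**
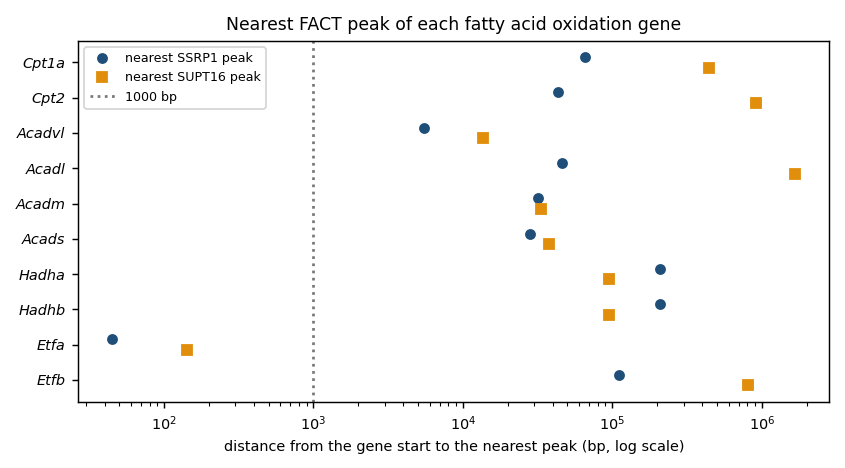
Distance in bp (log axis) from the start of each of the 10 genes to its nearest SSRP1 (blue circles) and SUPT16 (orange squares) peak, with a dotted line at 1000 bp. *Etfa* lies left of the line for both subunits, at 45 and 143 bp, and the other 9 genes lie right of it.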

How the data were processed

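RNA-seq values were deposited by the authors as a signal per gene and library once scaled by library size and once by the spike-ins. Per the methods, reads were aligned to mm10 with STAR 2.4.1b and counted with featureCounts, and genes at a low CPM were removed. No source used here states the strand setting of counting. Each count of chromatin RNA was deposited raw. Peak positions were deposited after calling with PePr on both replicates of a subunit together, with gene assignments by the authors. The deposited tables of KD against control, of neural precursors against mESCs and of exon usage hold the authors' own fold changes and p-values and were not used. MNase-seq, ATAC-seq and NET-seq were not analysed here.

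The log2(value + 0.5) of 15384 genes was fitted with limma 3.58.1 (trend, R 4.3.3) and Benjamini-Hochberg adjustment, and calls required an absolute log2 difference above 1 and an adjusted p below 0.01. Reads were recovered from the steps between values, 100% whole within 0.1, and tested with edgeR 4.0.16 and DESeq2 1.42.0 as alternatives. Scripts were tested on simulated data. Replicates of a group differed by more than sampling noise (chi-square per degree of freedom 1.88 to 6.61). The same-numbered control and KD libraries did not deviate together, so the numbers were not used as pairs. Gene starts, windows and sequences came from RefSeq on GRCm38.p6. All 10 genes, the other lists and the tests were chosen with earlier results of these data known. Named genes were the 10 genes, *Ssrp1* and *Supt16*, up to 3 called genes in each direction from each other list, and the 5 genes with the nearest profile. *Ehhadh*, *Acox3*, *Gabpa*, *Nrip1*, *Prkaa2*, the marker genes and the genes listed with peaks were named beside these.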

Additional observations from a re-analysis of the deposited data

Results flagged for a closer look

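Among 40 groups of 4 values (10 genes, 2 scalings, control and KD), 1 sample stood apart by Dixon's test at its 95% critical value. It was *Cpt2* in control replicate 4 under spike-in scaling, with a value of 16.9 beside 10.1 to 11.3 in the other control libraries (gap over range 0.831). Chance flags about 1 group in 20, and under library-size scaling the same library, at 18.9, was not flagged.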

How the results depend on the processing

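Over all genes, 4405 were called (1242 higher, 3163 lower), 2103 among genes with a mean value of at least 10, 8476 under spike-in scaling and 9441 under spike-in scaling without KD replicate 1, the last chosen after seeing the data. Of the 15384 genes, 4138 were called after the length correction, 3174 after quantile normalisation, 4711 with edgeR and 4762 with DESeq2. Of the 10 members 4 were called, 8 under spike-in scaling, 9 without KD replicate 1 as well, 2 after the length correction and 0 after quantile normalisation. The members' median log2 difference was 0.35, and 0.49 with the filter (*Acadl* was removed by it), 1.37 and 1.59 under the 2 spike-in settings and 0.16 after quantile normalisation. The medians of all genes, in the same order, were -0.03, 0.22, 0.95, 1.16 and 0.05. Called genes under spike-in scaling, under it without KD replicate 1, and after quantile normalisation were 17, 19 and 7 of the other mitochondrial genes, 11, 13 and 2 of the peroxisomal genes, 13, 15 and 0 of the synthesis genes, and 10, 12 and 2 of the regulators. Regulators called were 1 with the filter on low values (lower) and 5 with DESeq2 (1 higher and 4 lower). Among single genes, signs changed for *Acadvl* (0.995 and 1.20 under the spike-in settings), *Hadhb* (-0.0840, quantile), *Etfa* (-0.0334, quantile, and -0.0889, length), and, under spike-in scaling without KD replicate 1, *Acadl* (0.0390), *Mlycd* (0.0940) and *Lpin1* (0.23). The cause of these moves was not tested. Of 189 values of the members under alternatives, 164 kept direction and side of the threshold. Leaving out each library gave 4254 to 4635 calls in all, 4 and 4 of the members, 3 to 5 of the other mitochondrial genes, 4 to 5 peroxisomal, 2 to 3 synthesis and 2 to 5 regulators (5 without control replicate 4), a median of 0.32 to 0.39 for the members, and -0.0888 to 0.03 for *Acadvl*. With the replicate block 4405 genes and 4 members were called, and every list kept its count. In this balanced design the block leaves every log2 difference unchanged, also among the 189 values, so only p-values could move. Same-numbered libraries correlated at -0.06 to 0.02 in their deviations, and not every library correlated best with its own number. The labels do not say whether same-numbered libraries were prepared together, and these correlations cannot decide it. Members with a SSRP1 peak went from 1 to 0 with peaks of at least 500 bp. The median chromatin RNA level was 2.12 CPM without division by length, and 1.12 to 1.37 per kb with 1 library left out. Low read counts limit *Acadl* in RNA-seq and *Cpt2*, *Acadl*, *Hadhb* and *Cpt1a* on chromatin.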
